A study of Homo sapiens with 9 samples.

Results

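The genes described here encode core spliceosome proteins listed as outside the U2 snRNP, the particle that pladienolide B (PdB) acts on. They were taken by symbol from a fixed list of 42 genes: 3 proteins of the U1 snRNP, the 7 proteins of the Sm ring, 5 of the U5 snRNP, 6 of the U4/U6 snRNP and tri-snRNP, the 7 of the U6 LSm ring, 9 of the PRPF19 complex (NTC) and its partners, and 5 factors of the catalytic steps. The 7 Sm proteins are shared with the U2 snRNP and so are not outside it alone. All 42 genes were found among the 60708 genes of the count table, and all 42 passed the filter on low counts that left 20812 genes. The rule uses no measured value, but the members were chosen with earlier results of these data known.

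The cells were MDA-MB-231, an established human line of triple-negative breast cancer, and the 9 libraries formed 3 groups of 3. The DMSO group received the vehicle and the PdB group received 10 nM PdB for 16 h. The recovery group received 10 nM PdB for 16 h and was collected after 24 h of recovery from it. The groups share the cell line, the RPMI-based medium and the polyadenylated RNA library kit. The labels do not say whether the replicates were separate cultures, when the DMSO libraries were collected relative to the recovery libraries, or how the drug was removed, and 1 cell line is the whole model. The p-values therefore reflect no more than the variation among these samples, part or all of which may be technical.

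Each library held between 56389689 and 67047079 counts, and a member held between 335 and 54204 counts in a library. Levels are CPM, counts scaled to library size with TMM factors, which were 1.02 to 1.03 in DMSO, 0.883 to 0.923 in PdB and 1.08 to 1.09 at recovery. Mitochondrial genes took 4.67% to 5.59% of counts in DMSO, 6.71% to 8.43% in PdB and 8.02% to 8.18% at recovery. Their part in the changes below was not tested. Of the markers used to check the cell line, ESR1 and CD3E had 0 counts in DMSO, PGR had 0.021 CPM and CDH1 0.310 CPM, while the mesenchymal genes VIM (2871 ± 51.8 CPM) and CD44 (1038 ± 17.4 CPM) were abundant (mean ± SD, n = 3). EGFR had 478 ± 24.6 CPM in DMSO and PTPRC 0.398 ± 0.113. Not every marker went this way: ERBB2, listed as low in this line, had 106 ± 3.65 CPM in DMSO. The luminal epithelial genes KRT8, KRT18 and GATA3 had 660 ± 69.6, 474 ± 31.4 and 13.5 ± 0.923 CPM in DMSO. No spike-in enters the values, so every change is relative to the other genes of the library, and fewer cells of a type and less RNA per cell cannot be told apart.

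The spliceosome is built anew on each intron. The U1 snRNP pairs with the splice site at the start of the intron, the U2 snRNP binds the branch point, and the U4/U6.U5 tri-snRNP then joins. Release of U1 and U4 and arrival of the NTC give the active enzyme, in which PRPF8 and the U6 RNA hold the catalytic centre, and DEAH-box helicases drive the steps. The Sm ring is the protein collar of U1, U2, U4 and U5, and the LSm ring is that of U6.

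After PdB, 23 of the 42 genes rose and 15 fell against DMSO, and 4 did not pass the test (edgeR's quasi-likelihood test, Benjamini-Hochberg adjusted p below 0.05). Across all tested genes 70.1% passed in this comparison, 32.0% upward and 38.2% downward. The members' median log2 change was 0.19, against -0.11 over all tested genes. The median absolute log2 change was 0.74 for the members and 0.89 for all tested genes. The members' changes ran from -2.67 for LSM8 to 1.87 for PRPF3. With scaling by library totals, which lowers the median of all genes to -0.31, 16 members rose and 19 fell and their median was -0.0061. Over all genes 5579 rose and 9098 fell with that scaling. RLE factors and DESeq2 each gave 24 rises and 14 falls among the members, and upper-quartile factors 24 and 13. The balance of rises over falls therefore depends on the scaling, and among these scalings it turned with library totals only.

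At recovery, 21 members were higher than in DMSO, 12 were lower and 9 did not pass, where 61.2% of all tested genes passed, 30.7% upward and 30.5% downward. The members' median log2 change was 0.14, against 0.026 for all tested genes. From PdB to recovery 18 members rose and 19 fell, where 66.1% of all tested genes passed, 34.6% upward and 31.5% downward. With library totals those counts were 23 and 13, and over all genes 8862 rose and 4876 fell. Both comparisons at recovery use the same recovery libraries and share the DMSO or PdB libraries with the comparison under treatment, so their values are given side by side and are not independent of each other.

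**Figure D1:**
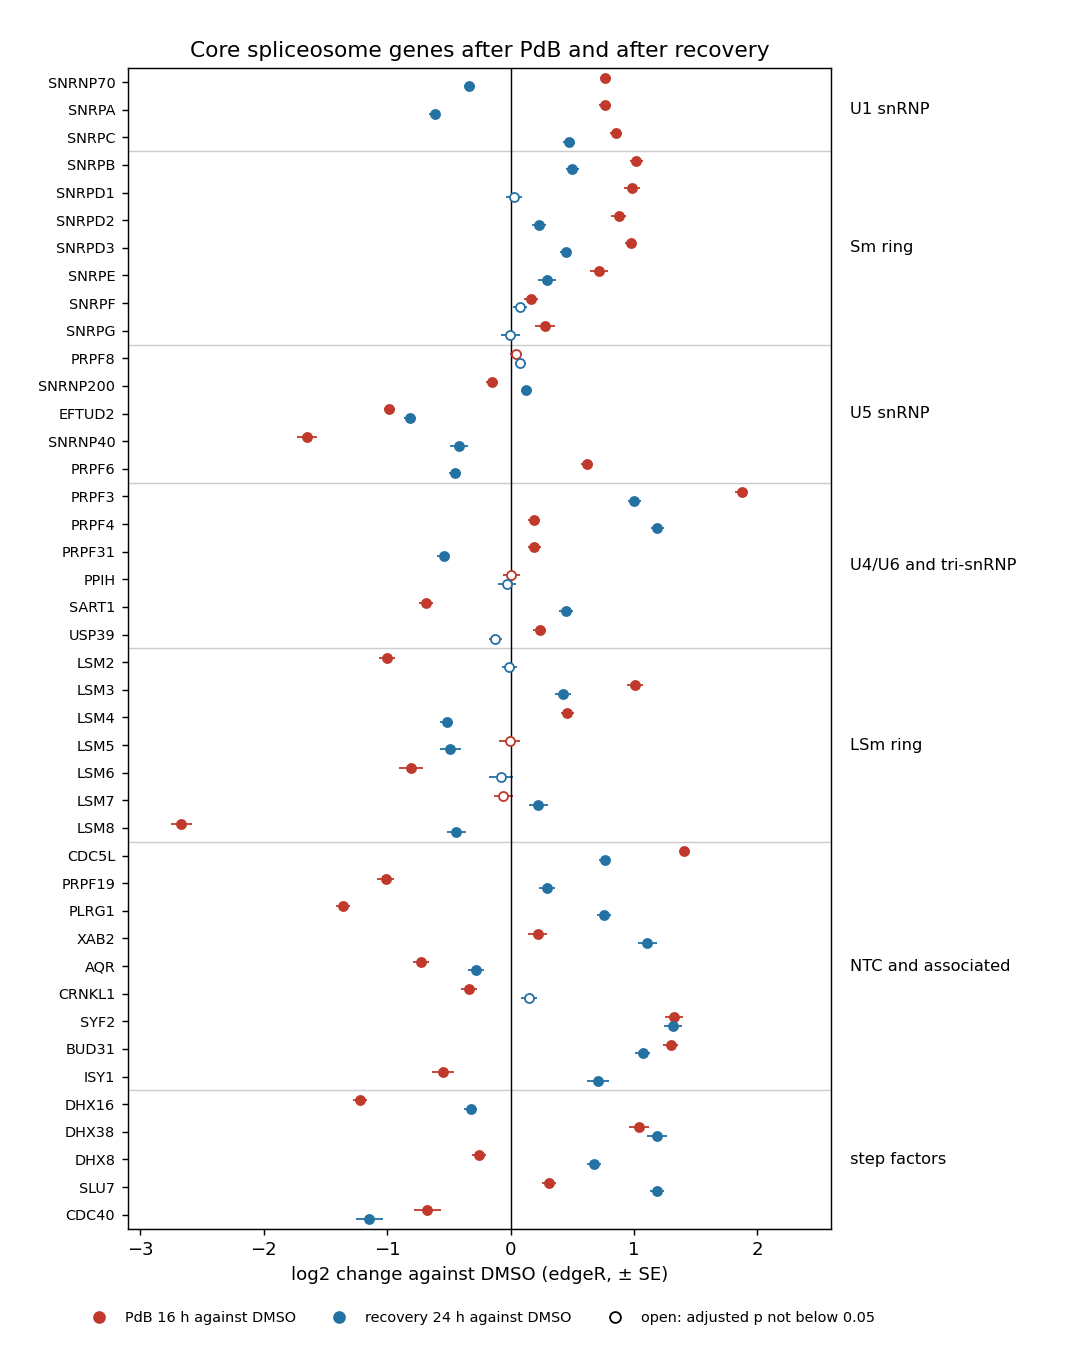
Log2 changes of the 42 genes against DMSO on the x axis (edgeR estimates, bars ± SE), after PdB (red) and at recovery (blue), grouped by complex on the y axis, with open points where the adjusted p was not below 0.05. All 10 U1 and Sm genes lie to the right of 0 after PdB, while each of the other complexes has points on both sides.

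Summed over the members of a complex, the U1, Sm and LSm levels were highest in PdB, the U4/U6 and tri-snRNP, NTC and step factor levels at recovery, and the U5 level in DMSO. The 3 U1 genes together stood at 494 ± 13.8 CPM in DMSO, 857 ± 6.78 in PdB and 472 ± 11.6 at recovery. The 7 Sm genes stood at 734 ± 45.5, 1341 ± 41.9 and 915 ± 24.1 CPM, and the 7 LSm genes at 380 ± 18.0, 417 ± 14.5 and 341 ± 7.57 CPM. The 6 U4/U6 and tri-snRNP genes stood at 586 ± 19.3, 762 ± 28.2 and 799 ± 22.0 CPM, where PdB (736 to 792) and recovery (778 to 822) overlapped. The 9 NTC genes stood at 684 ± 16.7, 848 ± 32.6 and 1063 ± 33.8 CPM, and the 5 step factors stood at 316 ± 0.651, 326 ± 28.2 and 481 ± 3.22 CPM. The U5 sum, to which PRPF8 gave the most, stood at 1575 ± 40.5, 1478 ± 42.5 and 1491 ± 30.2 CPM. Sums are weighted to the abundant genes and carry no test. They were taken with TMM scaling only, and where group sums are close, as for the LSm genes, their order may depend on it.

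Per kilobase of annotated exon, SNRPB was the most abundant member in all 3 groups (204, 413 and 288 CPM per kb in DMSO, PdB and recovery). CDC40 was the least abundant in DMSO (3.24 CPM per kb) and at recovery (1.46). In PdB the lowest was LSM8, at 1.01 CPM per kb, below CDC40 at 2.03. Per kilobase, PRPF3 went from 12.4 in DMSO to 45.6 in PdB, while its partner PRPF4 went from 30.5 to 34.8, which put PRPF3 above PRPF4 in PdB and below it in DMSO.

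Promoters are shown because members of a complex moved together in some complexes and apart in others. The table of RefSeq promoters (GRCh38.p14) held 39 of the 42 genes, and the 250 bases before the RefSeq start were searched on both strands for 6 fixed motifs, which cannot be read as binding sites. For 34 of the 39, the bases after the start were found in a GENCODE 29 transcript of the gene. Some windows, as for SNRPA, SLU7 and LSM5, lie inside the GENCODE 29 gene. The ETS letters CCGGAAG were found in 20 of 39 members (51.3%), against 8.82% of 27305 promoters and 15.3% of the 11130 promoters of tested coding genes. Of the 20 members with these letters 11 rose and 8 fell after PdB, and of the 19 without them 10 rose and 6 fell. The shares of all tested genes were 32.0% and 38.2%. No such shares were taken for coding genes with and without the letters. PPIH, SNRPG, SNRNP200 and PRPF6, whose starts were not matched to a transcript, are among the 20. The SP1 letters GGGCGG were in 24 of 39 (61.5%, against 66.5% of the tested coding genes' promoters), and the NF-Y letters CCAAT in 13 of 39 (33.3%, against 34.9%). The E-box CACGTG was in 2 of 39 (5.13%, against 8.82%), the NRF1 palindrome in 2 of 39 (5.13%, against 1.86%), and the YY1 letters AAGATGGCG in none of these windows, against 0.988%. Overlapping matches of different motifs were each counted.

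The 4 windows below were picked after the values were seen, as a riser and a faller with the ETS letters and a riser and a faller without them. Each is written 5′ to 3′ on the gene's strand and stops where the GENCODE 29 gene begins, and capitals mark the motif letters or their reverse complements. SYF2 (chr1:25232503-25232752, minus strand) and PLRG1 (chr4:154550436-154550650, minus strand) hold ETS and SP1 letters. SNRNP70 (chr19:49085201-49085418, plus strand) holds SP1 letters, and PRPF19 (chr11:60906589-60906835, minus strand) holds CCAAT at 2 places.
SYF2: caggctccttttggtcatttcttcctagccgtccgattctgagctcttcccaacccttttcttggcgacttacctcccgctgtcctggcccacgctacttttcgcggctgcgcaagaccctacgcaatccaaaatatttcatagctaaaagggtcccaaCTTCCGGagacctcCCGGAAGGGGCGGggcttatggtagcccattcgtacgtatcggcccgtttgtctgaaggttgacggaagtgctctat
PLRG1: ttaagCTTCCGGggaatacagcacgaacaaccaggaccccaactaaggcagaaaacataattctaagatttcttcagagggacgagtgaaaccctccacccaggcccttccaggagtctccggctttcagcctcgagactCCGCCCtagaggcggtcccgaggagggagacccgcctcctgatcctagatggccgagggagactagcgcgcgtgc
SNRNP70: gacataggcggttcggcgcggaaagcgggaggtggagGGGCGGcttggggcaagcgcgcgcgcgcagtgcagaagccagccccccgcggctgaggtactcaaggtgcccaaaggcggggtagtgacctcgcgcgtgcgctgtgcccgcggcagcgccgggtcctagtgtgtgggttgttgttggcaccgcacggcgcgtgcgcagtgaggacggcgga
PRPF19: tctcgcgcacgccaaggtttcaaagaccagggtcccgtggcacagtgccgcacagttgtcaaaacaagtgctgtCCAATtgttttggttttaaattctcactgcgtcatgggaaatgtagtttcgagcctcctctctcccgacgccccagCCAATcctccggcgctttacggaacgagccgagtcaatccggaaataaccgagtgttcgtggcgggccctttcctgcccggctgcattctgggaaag
SYF2 has the ETS letters at 77 and, as the reverse complement, at 91 bases before the RefSeq start, with SP1 letters directly after the nearer match. PLRG1 has the reverse complement CTTCCGG at 245 bases before the start. SYF2 rose by 1.33 and PLRG1 fell by 1.36 on the log2 scale after PdB. Both were picked for these directions, so the pair cannot show whether the letters go with direction.

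The 3 U1 genes rose after PdB and all 3 fell from PdB to recovery, where 32.0% and 31.5% of all tested genes did so. SNRNP70 (ENSG00000104852.15, chromosome 19, 49085419 to 49108605), which binds stem loop I of U1 RNA, had 242, 255 and 247 CPM in DMSO, 419.8, 420.1 and 427 in PdB and 188, 201 and 201 at recovery. The PdB libraries were highest and the recovery libraries lowest, and no groups overlapped. Its log2 change was 0.77 ± 0.045 after PdB (adjusted p = 2.0e-11), -0.33 ± 0.045 at recovery against DMSO (adjusted p = 3.1e-06) and -1.10 ± 0.045 from PdB to recovery.

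SNRPA, which binds stem loop II, had 91.1, 91.6 and 91.4 CPM in DMSO, 152, 159 and 154 in PdB and 60.8, 58.6 and 59.5 at recovery. It had the same order of groups without overlap, with log2 changes of 0.76 ± 0.048 after PdB and -0.62 ± 0.048 at recovery against DMSO (adjusted p = 5.7e-11 and 2.4e-09). SNRPC, which steadies pairing with the splice site, had 146, 154 and 165 CPM in DMSO, 278, 281 and 282 in PdB and 209, 219 and 217 at recovery. Its recovery libraries lay between those of DMSO and PdB, with log2 changes of 0.85 ± 0.050 and 0.47 ± 0.050 (adjusted p = 2.2e-11 and 1.3e-07). No test of the difference between these genes was run.

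All 7 Sm genes rose after PdB, where 32.0% of all tested genes did. The rises ran from 0.17 to 1.02 on the log2 scale with a median of 0.88. With library totals, however, SNRPF was at -0.029 and SNRPG did not pass (0.082). SNRPB (ENSG00000125835.19, chromosome 20, 2461634 to 2470853, minus strand), which gives the B and B′ proteins, had 245, 267 and 269.8 CPM in DMSO, 516, 542 and 525 in PdB and 386, 375 and 342 at recovery. The groups did not overlap, with PdB highest and recovery between. The log2 change was 1.02 ± 0.053 after PdB (adjusted p = 4.0e-12) and 0.50 ± 0.053 at recovery (adjusted p = 1.5e-07). SNRPB shares 256 of its 1278 exon bases with a gene on the same strand that has no symbol here (ENSG00000256566) and changed by 0.99 and 0.50 in those comparisons. How reads in the shared bases were assigned is not given in the sources used here.

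SNRPD1, the SmD1 protein, had 88.5, 108 and 98.0 CPM in DMSO, 189, 209.6 and 184 in PdB and 99.7, 99.1 and 100.5 at recovery. The recovery libraries lay within the range of the DMSO libraries. The estimated log2 change was 0.99 ± 0.065 after PdB (adjusted p = 1.3e-10), 0.02 ± 0.065 at recovery against DMSO (adjusted p = 0.77) and -0.96 ± 0.065 from PdB to recovery. SNRPD2 and SNRPD3, which complete the D proteins of the ring, rose by 0.88 ± 0.059 and 0.97 ± 0.045 after PdB and were 0.23 ± 0.059 and 0.45 ± 0.045 above DMSO at recovery.

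SNRPE, SNRPF and SNRPG form a preassembled part of the ring and rose by 0.72 ± 0.075, 0.17 ± 0.057 and 0.28 ± 0.078. The rise of SNRPF (adjusted p = 0.013) was lost without DMSO replicate 1 (adjusted p = 0.085) and with no filter on low counts (adjusted p = 0.090). SNRPG has 20 annotated pseudogenes whose counts came to 6.44% of its own, so its value is less certain than that of the other Sm genes, where the share was at most 0.790%. At recovery against DMSO, SNRPB, SNRPD2, SNRPD3 and SNRPE were higher, and SNRPD1, SNRPF and SNRPG did not pass. SNRPF, at 0.07 ± 0.057, passed there with upper-quartile factors (0.15, adjusted p = 0.025) and library totals (0.14, adjusted p = 0.027).

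**Figure D2:**
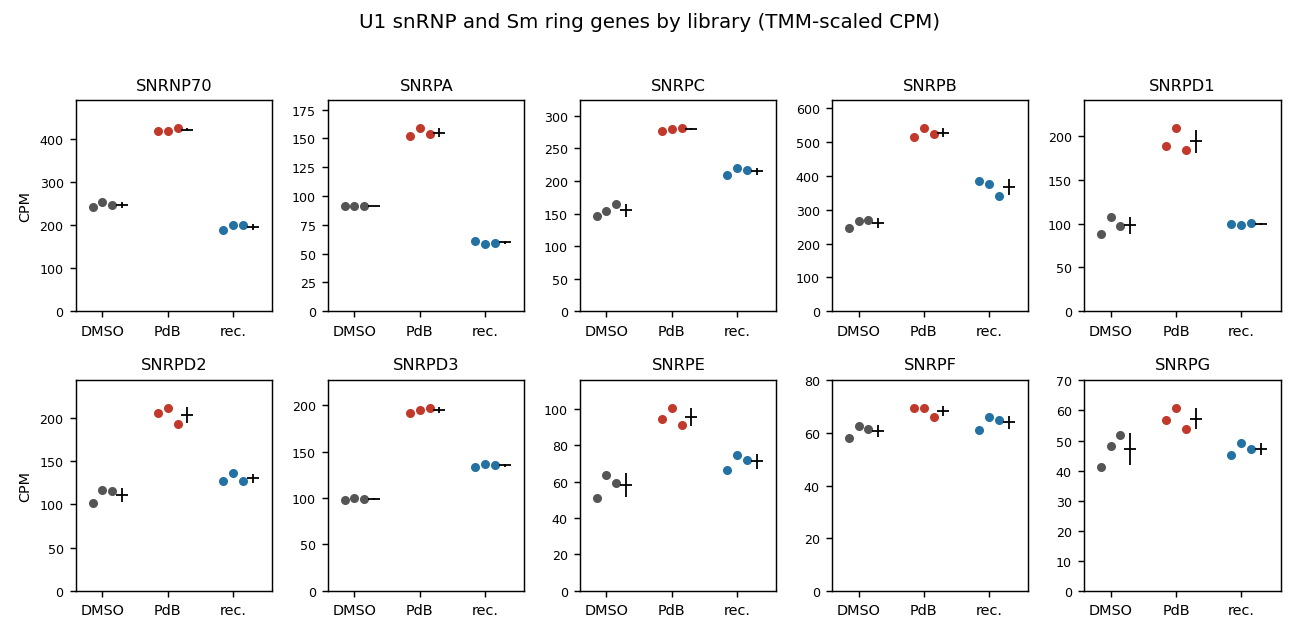
TMM-scaled CPM (y axis, from 0) of the 3 U1 and 7 Sm genes in each library (points) of the DMSO, PdB and recovery groups, with the mean ± SD beside them (crosses, n = 3). The PdB libraries are highest in every panel except SNRPF, where PdB and recovery overlap, and recovery lies below DMSO for SNRNP70 and SNRPA and above it for SNRPB and SNRPD3.

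The U5 proteins did not move together: 1 rose, 3 fell and 1 did not pass after PdB. Across all tested genes 32.0% rose and 38.2% fell. PRPF8, the scaffold of the catalytic centre, had 784, 723 and 711 CPM in DMSO, 736, 762 and 789 in PdB and 781, 759.7 and 803 at recovery. The 3 groups overlapped. The fitted log2 change was 0.04 ± 0.046 after PdB (adjusted p = 0.42) and 0.08 ± 0.046 at recovery (adjusted p = 0.15). The PdB value depended on scaling, at 0.14 with RLE factors (adjusted p = 0.014), 0.19 by the upper quartile and -0.15 with library totals (adjusted p = 0.011). At recovery PRPF8 passed as higher with RLE (0.12), upper-quartile (0.15) and library-total scaling (0.15), with a mean of at least 50 counts (0.12), with DESeq2 (0.12) and without DMSO replicate 1 (0.12), where adjusted p lay between 0.0091 and 0.035.

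SNRNP200, the BRR2 helicase that unwinds U4 from U6, had 379, 369 and 383 CPM in DMSO, 326, 339 and 354 in PdB and 425, 401 and 409.6 at recovery. PdB was lowest and recovery highest, without overlap. The fall of 0.15 ± 0.045 in log2 after PdB (adjusted p = 0.0063) did not pass with RLE factors (adjusted p = 0.30), upper-quartile factors (0.99), DESeq2 (0.27), a mean of at least 50 counts (0.58) or only the 6 libraries compared (0.21). The recovery change of 0.13 ± 0.045 (adjusted p = 0.020) did not pass without DMSO replicate 2 (0.083), without recovery replicate 1 (0.10) or with no filter (0.065).

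EFTUD2, the GTPase partner of SNRNP200, had 236, 249 and 236 CPM in DMSO, 117, 124 and 124 in PdB and 135, 137 and 137 at recovery. The PdB and recovery groups lay far below DMSO. Its log2 change was -0.98 ± 0.047 after PdB (adjusted p = 1.3e-12) and -0.82 ± 0.047 at recovery (adjusted p = 3.8e-11). SNRNP40, a WD-repeat protein bound to PRPF8, had 66.7, 68.5 and 62.8 CPM in DMSO, 24.2, 19.8 and 19.2 in PdB and 48.3, 51.0 and 48.9 at recovery, with log2 changes of -1.65 ± 0.080 and -0.42 ± 0.076 (adjusted p = 1.5e-12 and 1.0e-04). The recovery libraries of SNRNP40 lay between those of PdB and DMSO.

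PRPF6, which bridges U5 and U4/U6 in the tri-snRNP, had 153, 156 and 147 CPM in DMSO, 234, 232 and 236 in PdB and 111, 108 and 116 at recovery. It was highest in PdB and lowest at recovery without overlap, with log2 changes of 0.62 ± 0.047 and -0.45 ± 0.047 against DMSO (adjusted p = 8.7e-10 and 1.2e-07). The ratio of PRPF6 to SNRNP40 in CPM, a pair chosen after the values were seen, was 2.31 ± 0.0345 in DMSO, 11.2 ± 1.36 in PdB and 2.26 ± 0.129 at recovery.

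Among the U4/U6 and tri-snRNP genes, 4 rose, 1 fell and 1 did not pass after PdB. Of all tested genes, 32.0% rose and 38.2% fell. With library totals, however, PRPF4 and PRPF31 were at -0.0075 and -0.0047 and USP39 did not pass. PRPF3 (ENSG00000117360.13, chromosome 1, 150321476 to 150353195), a U4/U6 protein that works in a complex with PRPF4, had 66.1, 70.4 and 63.7 CPM in DMSO, 248, 250.3 and 236 in PdB and 135, 138 and 129 at recovery. The groups did not overlap, and recovery lay between. The log2 change was 1.87 ± 0.053 after PdB, a 3.67-fold rise (adjusted p = 1.0e-15), and 1.00 ± 0.052 at recovery (adjusted p = 9.9e-12).

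PRPF4, the direct partner of PRPF3, had 104, 115 and 112 CPM in DMSO, 123, 129 and 126 in PdB and 256, 259 and 240.3 at recovery. Its recovery libraries were the highest, with log2 changes of 0.19 ± 0.051 after PdB (adjusted p = 0.0032) and 1.19 ± 0.052 at recovery (adjusted p = 1.0e-12). The CPM ratio of PRPF3 to PRPF4 was 0.606 ± 0.0328 in DMSO, 1.95 ± 0.0710 in PdB and 0.531 ± 0.00405 at recovery, a pair named after the values were seen. From PdB to recovery PRPF3 fell by 0.87 ± 0.051 in log2 and PRPF4 rose by 1.00 ± 0.051.

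PRPF31, which binds the U4 snRNA and links it to PRPF6, had 116, 119 and 118 CPM in DMSO, 136, 141 and 126 in PdB and 82.8, 80.3 and 79.3 at recovery. Recovery was lowest, with a log2 change of -0.54 ± 0.052 against DMSO (adjusted p = 4.2e-08). It shares 22.0% of its exon bases with an antisense gene, PRPF31-AS1, and strand use in the counting is not given in the sources used here. PRPF31-AS1 itself had 2.27 CPM in DMSO and 2.66 in PdB.

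SART1, needed for recruiting the tri-snRNP, had 138, 144 and 143 CPM in DMSO, 86.1, 97.6 and 80.9 in PdB and 191, 198 and 194 at recovery. It was lowest in PdB and highest at recovery without overlap, with log2 changes of -0.69 ± 0.059 and 0.45 ± 0.059 against DMSO (adjusted p = 6.1e-09 and 2.2e-06). USP39, which is needed for tri-snRNP function, rose by 0.23 ± 0.053 after PdB and was at -0.12 ± 0.053 at recovery (adjusted p = 0.052). That adjusted p became 0.034 without DMSO replicate 1, 0.036 without PdB replicate 3 and 0.021 without recovery replicate 2. With only the 6 libraries compared it was 0.048, and with the replicate number as a block 0.023. PPIH, a cyclophilin bound to PRPF4, was at 0.01 ± 0.073 and -0.03 ± 0.072 (adjusted p = 0.93 and 0.75). With library totals it passed as lower after PdB (-0.19, adjusted p = 0.026) and as higher from PdB to recovery (0.23, adjusted p = 0.0090).

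**Figure D3:**
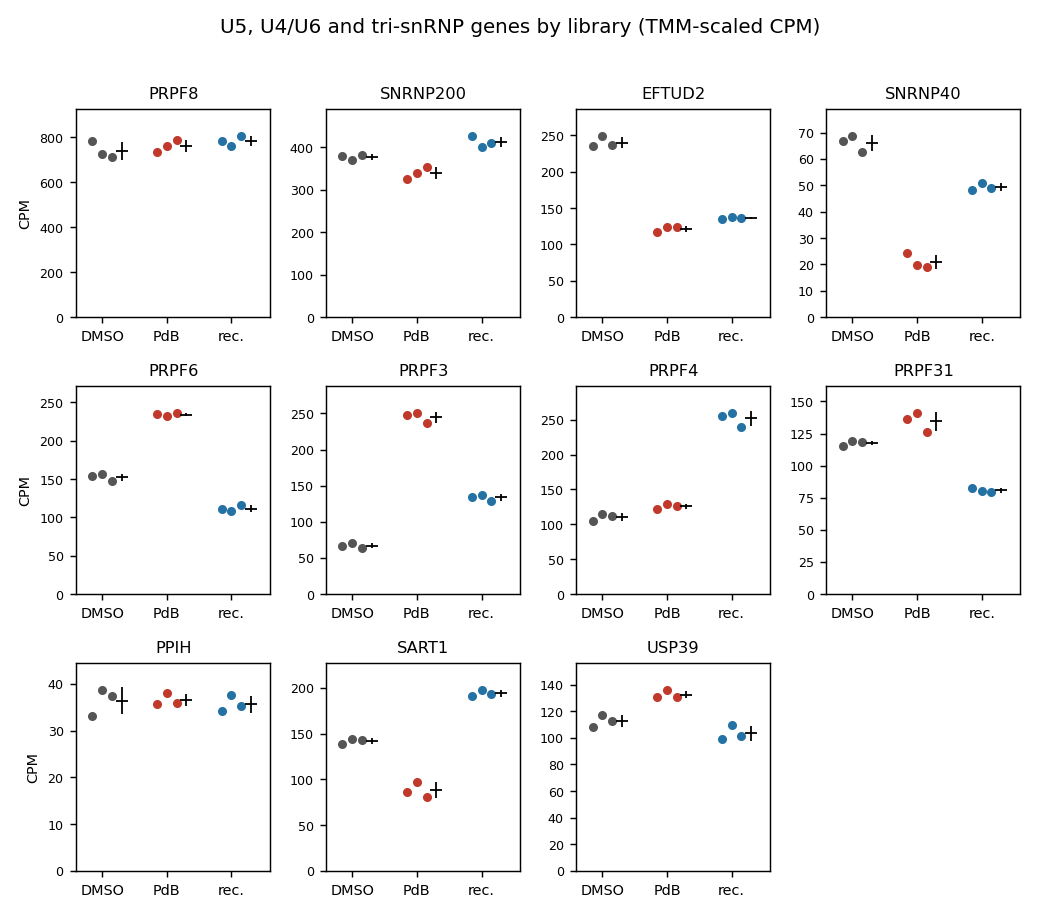
TMM-scaled CPM (y axis, from 0) of the 5 U5 and 6 U4/U6 and tri-snRNP genes in each library (points) of the DMSO, PdB and recovery groups, with the mean ± SD beside them (crosses, n = 3). PRPF3 peaks in PdB, PRPF4 and SART1 are highest at recovery, and EFTUD2 is low in both PdB and recovery.

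The LSm ring had the widest spread of changes within a complex after PdB, from -2.67 to 1.01 on the log2 scale. In it 2 genes rose, 3 fell and 2 did not pass, where 32.0% of all tested genes rose and 38.2% fell. LSM8 (ENSG00000128534.8, chromosome 7, 118184032 to 118192824), the subunit that sets the nuclear U6 ring apart from the cytoplasmic LSM1 ring of mRNA decay, had 40.8, 40.3 and 38.1 CPM in DMSO, 6.32, 5.95 and 6.49 in PdB and 27.1, 30.2 and 30.6 at recovery. All PdB libraries were far below the others and recovery stayed below DMSO. The fitted log2 change was -2.67 ± 0.085 after PdB, a level 6.35-fold lower (adjusted p = 4.5e-15), -0.44 ± 0.076 at recovery against DMSO (adjusted p = 5.7e-05) and 2.23 ± 0.084 from PdB to recovery. These values are counts over the gene and do not show which transcripts they come from.

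LSM1, the cytoplasmic counterpart of LSM8 and not a member, had 17.6, 18.6 and 19.6 CPM in DMSO, 18.8, 19.5 and 20.1 in PdB and 39.8, 40.3 and 36.5 at recovery. Its log2 change was 0.07 ± 0.077 after PdB (adjusted p = 0.46) and 1.06 ± 0.076 at recovery (adjusted p = 7.4e-10). The CPM ratio of LSM8 to LSM1 was 2.14 ± 0.191 in DMSO, 0.321 ± 0.0150 in PdB and 0.756 ± 0.0795 at recovery. The 3 groups of ratios did not overlap, with values of 1.94 to 2.32, 0.305 to 0.335 and 0.681 to 0.839.

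LSM3 had 50.2, 54.9 and 50.9 CPM in DMSO, 108, 112 and 94.7 in PdB and 69.3, 70.7 and 69.1 at recovery. It lay in the opposite direction to LSM8, with log2 changes of 1.01 ± 0.064 and 0.42 ± 0.063 (adjusted p = 6.4e-11 and 1.2e-05). LSM4 had 129, 141 and 147 CPM in DMSO, 187, 192 and 194 in PdB and 96.5, 96.8 and 97.8 at recovery, with log2 changes of 0.46 ± 0.051 and -0.52 ± 0.051 (adjusted p = 2.1e-07 and 6.5e-08). LSM3 and LSM4 are shared by the nuclear and the cytoplasmic ring.

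LSM2, the neighbour of LSM3 in the ring, fell by 1.00 ± 0.065 after PdB and was at -0.01 ± 0.063 at recovery (adjusted p = 1.0e-10 and 0.91). LSM6 fell by 0.81 ± 0.098 and was at -0.08 ± 0.095 at recovery. LSM5 was at -0.01 ± 0.084 after PdB and fell by 0.49 ± 0.085 at recovery (adjusted p = 6.3e-05). LSM7 was at -0.06 ± 0.080 after PdB and at 0.23 ± 0.079 at recovery, where its adjusted p of 0.019 became 0.12 without DMSO replicate 1 and 0.10 without recovery replicate 2. With library totals LSM5 and LSM7 passed as lower after PdB, at -0.20 and -0.26.

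**Figure D4:**
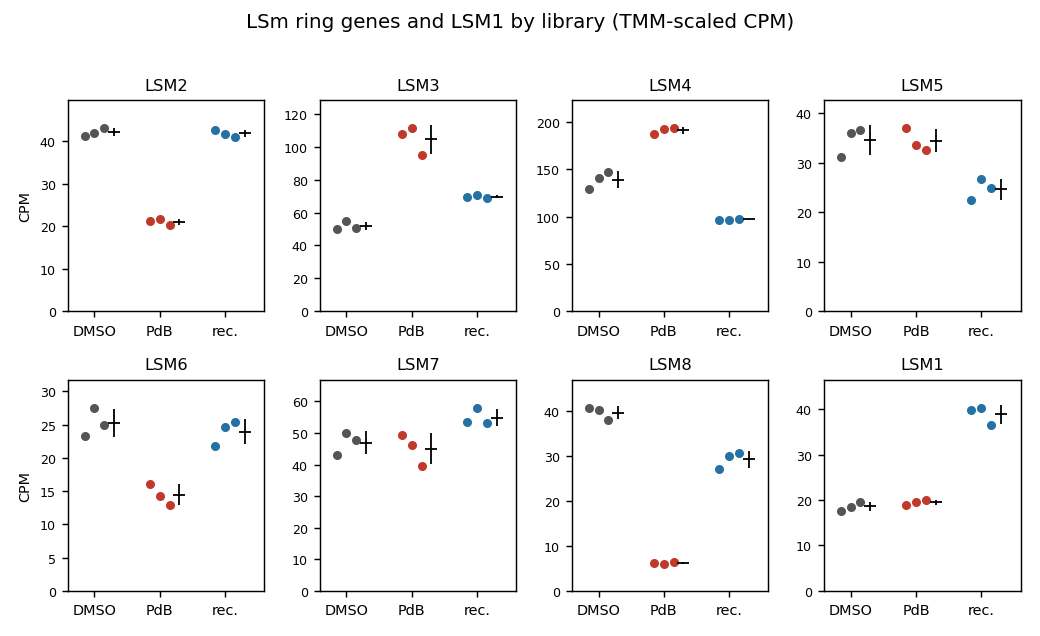
TMM-scaled CPM (y axis, from 0) of the 7 genes of the U6 LSm ring and of LSM1 in each library (points) of the DMSO, PdB and recovery groups, with the mean ± SD beside them (crosses, n = 3). LSM8 lies at 5.95 to 6.49 CPM in PdB against 38.1 to 40.8 in DMSO, while LSM3 and LSM4 are highest in PdB and LSM1 is highest at recovery.

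Of the NTC and its partners, which stabilise the activated spliceosome, 4 genes rose and 5 fell after PdB. All tested genes had shares of 32.0% that rose and 38.2% that fell. At recovery 7 of these 9 genes were higher than DMSO, 1 was lower and 1 did not pass. There, 30.7% of all tested genes were higher and 30.5% lower. PRPF19, the ubiquitin ligase the complex is named for, had 177, 195 and 182 CPM in DMSO, 95.7, 98.1 and 80.8 in PdB and 233, 235 and 211 at recovery. It was lowest in PdB and highest at recovery without overlap, with log2 changes of -1.01 ± 0.068 and 0.29 ± 0.067 against DMSO (adjusted p = 1.7e-10 and 9.0e-04).

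CDC5L (ENSG00000096401.8, chromosome 6, 44387525 to 44450426), a Myb-related core subunit, had 128, 124 and 124 CPM in DMSO, 329.8, 343 and 324 in PdB and 207, 217 and 215 at recovery. It rose where PRPF19 fell, with log2 changes of 1.41 ± 0.046 and 0.76 ± 0.045 (adjusted p = 6.1e-15 and 5.8e-11). PLRG1 (ENSG00000171566.12, chromosome 4, 154535006 to 154550435), a WD-repeat subunit that binds CDC5L, had 79.5, 81.3 and 77.0 CPM in DMSO, 28.7, 32.3 and 31.8 in PdB and 137, 132 and 133 at recovery. The log2 change was -1.36 ± 0.058 after PdB, 0.76 ± 0.056 at recovery against DMSO and 2.12 ± 0.059 from PdB to recovery (adjusted p = 2.4e-13, 1.1e-09 and 1.7e-15). The CPM ratio of CDC5L to PLRG1, a pair named after the values were seen, was 1.58 ± 0.0537 in DMSO, 10.8 ± 0.668 in PdB and 1.59 ± 0.0702 at recovery.

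SYF2, a small partner of the NTC, had 27.8, 30.9 and 32.1 CPM in DMSO, 82.7, 72.3 and 72.7 in PdB and 78.8, 76.3 and 70.3 at recovery. PdB and recovery overlapped and both lay above DMSO, with log2 changes of 1.33 ± 0.072 and 1.31 ± 0.072 (adjusted p = 8.2e-12 and 2.2e-11). BUD31, a zinc-binding NTC-related protein, rose 2.46-fold after PdB (log2 SE 0.062) and was 2.10-fold above DMSO at recovery. BUD31 shares 38.7% of its exon bases with PTCD1 on the other strand, which changed by 0.48 and 0.25. It also shares 7.96% with PDAP1 on that strand, which changed by -0.26 and -0.72. The values of BUD31 are therefore uncertain by the reads these genes may share.

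AQR, the helicase of the intron-binding complex, had 73.0, 73.1 and 63.9 CPM in DMSO, 40.0, 43.2 and 43.9 in PdB and 56.5, 57.9 and 58.8 at recovery. It was below DMSO in both groups, with log2 changes of -0.72 ± 0.065 and -0.28 ± 0.064 (adjusted p = 1.0e-08 and 0.0010). XAB2, which sits in the same intron-binding complex, had 61.0, 64.6 and 66.6 CPM in DMSO, 81.5, 78.5 and 63.7 in PdB and 143, 141 and 130.4 at recovery. The PdB libraries of XAB2 overlapped DMSO through replicate 3, and the change of 0.22 ± 0.076 (adjusted p = 0.015) did not pass without DMSO replicate 1 (0.083), PdB replicate 1 (0.11) or PdB replicate 2 (0.074). With library totals it was 0.020 (adjusted p = 0.81). At recovery XAB2 was 1.11 ± 0.076 above DMSO (adjusted p = 3.9e-10).

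ISY1, also in the intron-binding complex, fell by 0.55 ± 0.087 after PdB and was 0.71 ± 0.085 above DMSO at recovery. It shares 912 of 4102 exon bases with the readthrough gene ISY1-RAB43 on the same strand, which was at -0.15 and 0.30. CRNKL1, a helical-repeat scaffold, fell by 0.33 ± 0.066 after PdB and was at 0.15 ± 0.065 at recovery, where its adjusted p was 0.050. It passed there with RLE, upper-quartile and library-total scaling, at 0.20, 0.23 and 0.22.

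The 5 step factors act on the assembled enzyme: DHX16 activates it, DHX38 remodels it between the steps, SLU7 and CDC40 help the second step, and DHX8 releases the mRNA. After PdB 2 rose and 3 fell, where 32.0% of all tested genes rose and 38.2% fell. DHX38 had 74.9, 73.9 and 70.0 CPM in DMSO, 171, 155 and 125 in PdB and 163, 167 and 168 at recovery. The spread within PdB was wide, and both groups lay above DMSO, with log2 changes of 1.04 ± 0.080 and 1.19 ± 0.080 (adjusted p = 1.1e-09 and 3.4e-10). The step from PdB to recovery, 0.14 ± 0.079 (adjusted p = 0.12), was 0.25 without PdB replicate 1 (adjusted p = 0.0075) and 0.41 with library totals.

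DHX16 had 98.0, 102 and 103 CPM in DMSO, 43.5, 41.4 and 45.0 in PdB and 82.7, 79.2 and 80.0 at recovery. It was lowest in PdB and did not reach the DMSO range, with log2 changes of -1.22 ± 0.054 and -0.32 ± 0.053 (adjusted p = 4.8e-13 and 3.5e-05). DHX8 had 80.7, 80.5 and 81.8 CPM in DMSO, 70.1, 70.9 and 62.8 in PdB and 131, 129 and 128 at recovery. Its change of -0.25 ± 0.054 after PdB (adjusted p = 4.3e-04) did not pass with upper-quartile factors (0.083), and it was 0.68 ± 0.054 above DMSO at recovery (adjusted p = 3.4e-09).

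SLU7 had 42.5, 40.2 and 44.4 CPM in DMSO, 53.0, 53.0 and 51.6 in PdB and 98.1, 96.5 and 94.4 at recovery. Its highest libraries were those of recovery, with log2 changes of 0.31 ± 0.056 and 1.18 ± 0.056 (adjusted p = 7.8e-05 and 2.9e-12). With library totals the PdB change did not pass (adjusted p = 0.079). CDC40, the other factor of the second step, had 19.7, 19.96 and 18.1 CPM in DMSO, 11.9, 13.8 and 10.4 in PdB and 9.25, 8.74 and 8.11 at recovery. It was the only member to fall by more than 1 on the log2 scale at recovery against DMSO, at -1.15 ± 0.11, after -0.68 ± 0.11 in PdB (adjusted p = 3.9e-08 and 2.0e-05). From PdB to recovery CDC40 fell by a further 0.47 ± 0.11 (adjusted p = 0.0011), which did not pass with library totals (adjusted p = 0.11). The CPM ratio of SLU7 to CDC40, named after the values were seen, was 2.21 ± 0.227 in DMSO, 4.41 ± 0.550 in PdB and 11.1 ± 0.525 at recovery.

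**Figure D5:**
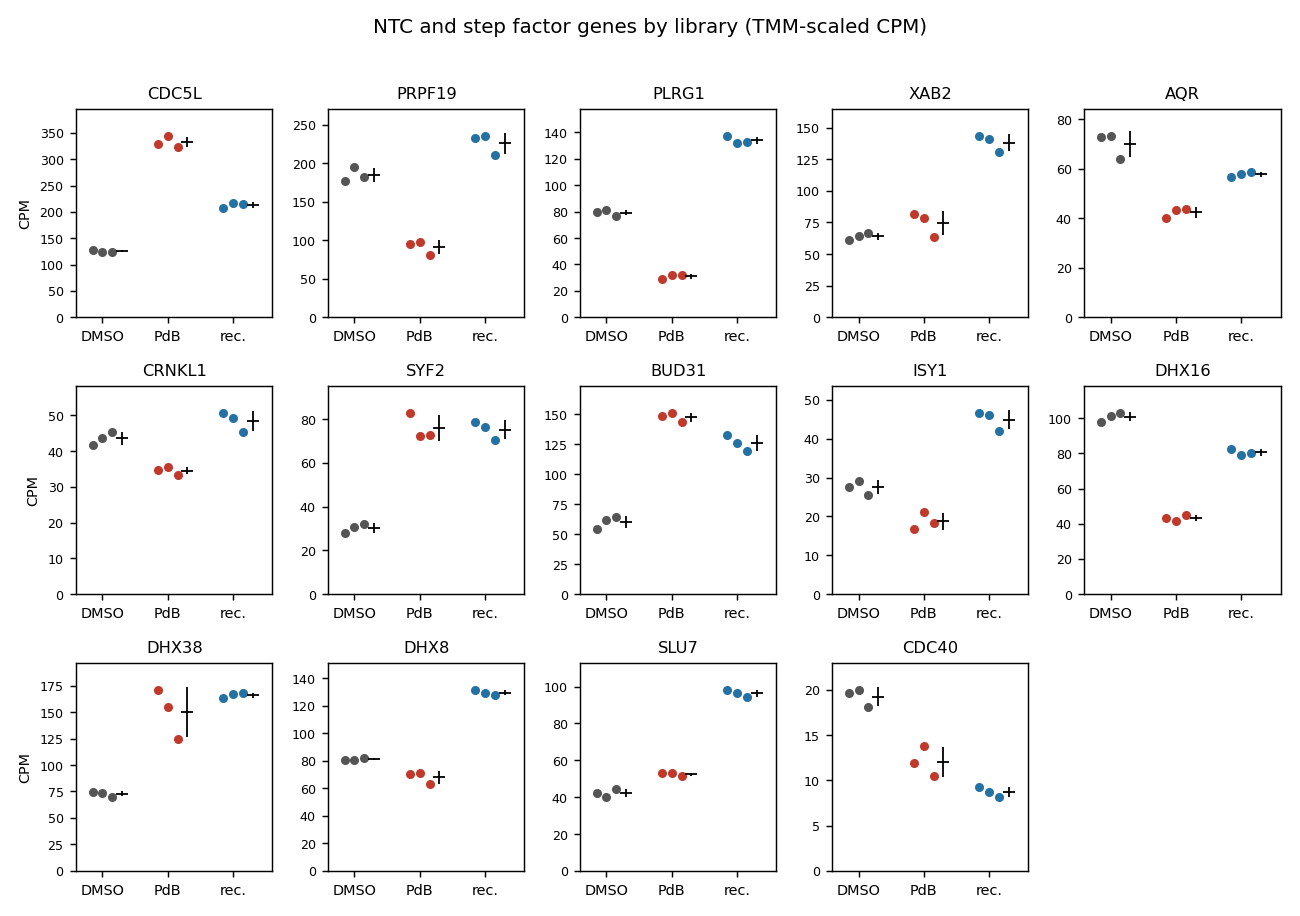
TMM-scaled CPM (y axis, from 0) of the 9 NTC genes and 5 step factors in each library (points) of the DMSO, PdB and recovery groups, with the mean ± SD beside them (crosses, n = 3). CDC5L, SYF2, BUD31 and DHX38 are high in PdB, PRPF19, PLRG1 and DHX16 are low there, and CDC40 is lowest at recovery.

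Intron number is a property that the rule did not use, and the members were set beside all coding genes of the same intron class after PdB. Of 16 members with at most 5 introns, 11 rose and 3 fell (median log2 change 0.59), where 46.7% of 5108 coding genes of that class rose and 28.96% fell (median 0.25). Of 16 with 6 to 15 introns, 9 rose and 6 fell (median 0.19), where 29.7% of 6148 genes rose and 50.1% fell (median -0.30). Of 10 with more than 15 introns, 3 rose and 6 fell (median -0.20), where 13.9% of 2970 genes rose and 69.6% fell (median -0.83). The member medians lay above those of their class in these 3 cases. At recovery against DMSO they were 0.049, 0.40 and 0.10, against 0.10, -0.093 and -0.34 for the classes. From PdB to recovery all 3 lay below their class, at -0.40, -0.025 and 0.36 against -0.24, 0.17 and 0.44. The rank correlation of intron number with the log2 change was -0.22 across the 42 members and -0.34 across 14226 coding genes, as a description, since genes of these libraries are not replicates. At recovery against DMSO it was 0.11 across the members and -0.20 across coding genes, and from PdB to recovery 0.28 and 0.21.

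Genes that act beside the members were taken from 5 further lists of 81 genes, of which 80 were tested (SNRPN had 0 counts in every library). After PdB 48 rose, 27 fell and 5 did not pass, with a median log2 change of 0.38, where 32.0% of all tested genes rose and 38.2% fell with a median of -0.11. At recovery against DMSO 57 were higher, 13 lower and 10 did not pass, with a median of 0.51, where 30.7% of all tested genes were higher and 30.5% lower with a median of 0.026. The counts by list below are after PdB and stand beside the same shares of all genes. Among 8 U1 accessory proteins 6 rose and 2 fell. PRPF39, which helps U1 bind, rose by 2.40 ± 0.065, and PRPF40B, a homologue of a yeast U1 protein, fell by 1.85 ± 0.14. Among 16 other tri-snRNP and B complex genes 10 rose and 6 fell. TSSC4, a chaperone of tri-snRNP assembly, rose from 37.7 ± 4.37 to 280.3 ± 24.0 CPM (log2 change 2.89 ± 0.081), and DDX23, the U5 helicase that releases U1, fell by 0.76 ± 0.048.

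Among 25 other NTC and catalytic genes 17 rose, 7 fell and 1 did not pass. ZNF830, a partner of the XAB2 and ISY1 complex, rose by 2.66 ± 0.091, and PPIL2, a cyclophilin with a U-box, fell with a log2 change of -2.00 ± 0.091. Of 24 genes of snRNP assembly and snRNA maturation, 13 rose, 9 fell and 2 did not pass. GEMIN2, the SMN complex subunit that holds the Sm proteins before they close on the RNA, had 9.53, 9.69 and 8.68 CPM in DMSO, 0.354, 1.37 and 1.59 in PdB and 5.84, 5.55 and 5.51 at recovery. It was lowest in PdB, by 3.08 ± 0.29 in log2 (adjusted p = 2.6e-08). SMN1, which encodes the SMN protein, rose by 2.58 ± 0.078, but its near-identical copy SMN2 rose by 1.78 ± 0.099 and reads of the copies may be split between them.

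Of 7 LSm proteins outside the U6 ring, 2 rose, 3 fell and 2 did not pass after PdB. LSM10, part of the U7 snRNP of histone mRNA processing, had 22.3, 24.2 and 24.0 CPM in DMSO, 5.72, 6.998 and 6.15 in PdB and 13.2, 13.3 and 14.1 at recovery. It was lowest in PdB without overlap, at -1.90 ± 0.10 in log2 (adjusted p = 4.9e-12). LSM14A, a P-body protein, rose by 0.79 ± 0.055. The related lists were compiled with earlier results of these data known and carry no test as lists.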

How the data were processed

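Polyadenylated RNA of 9 MDA-MB-231 libraries was sequenced, per the labels (Universal Plus mRNA-Seq kit with NuQuant). Raw read counts per gene, as whole numbers with no normalisation, are what the authors deposited. The submitters' processing notes name the hg38 genome and the tools DESeq2 1.30.0, featureCounts 2.0.3, Picard, STAR 2.7.9a and fastp 0.23.2. Tool settings, annotation release, strand use and the handling of duplicate or multiply mapped reads: not given in the sources used here. Values of overlapping genes (19 members share exon bases with another gene, 17 of them on the opposite strand) and of genes with near-identical copies are therefore uncertain. All 9 columns were used.

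Low counts were removed with filterByExpr (20812 genes left). TMM scaling and the two-sided quasi-likelihood test of edgeR 4.0.16 (R 4.3.3) were applied in a model of group means over the 9 libraries, and p-values were adjusted by Benjamini-Hochberg over all tested genes, with a threshold of 0.05. The common BCV (biological coefficient of variation) came to 0.111. Errors beside log2 changes are SE, and beside CPM and CPM ratios SD (n = 3). Of the 60708 gene IDs, 60463 had a symbol, and 58440 matched GENCODE 29 (GRCh38), the source of coordinates, exon lengths and introns (transcript with the longest coding sequence). Within a group, libraries differed by 4.98 to 26.0 in chi-square per degree of freedom, so none was taken as a copy of another. The labels state no pairing of the libraries, and the main model used none. Deviations from the group means correlated at -0.0032 to 0.048 for same-numbered libraries and at -0.0615 to 0.0263 for others. These correlations are small, but they do not settle whether replicate numbers pair the libraries.

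Any member could be named. Values by library were planned for the largest rise and fall past the test in each complex and comparison and for SNRNP70, PRPF8, LSM8 and PRPF19, and from the related lists the largest rise and fall after PdB were named with LSM1, LSM10 and SMN1. The members and lists were chosen with earlier results of these data known. As alternatives, scaling was changed to RLE, upper quartile or library totals. The filter was dropped or set to a mean of 50 counts, the FDR set to 0.01, DESeq2 1.42.0 used instead of edgeR, or changes tested against 2-fold. The fit was also limited to the 6 libraries of a comparison, given the replicate number as a block, or run without each library in turn. Scripts were tested on simulated data. Promoter sequences are RefSeq's (GRCh38.p14). Figures were drawn with matplotlib 3.10.9 in Python 3.11.15.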

Additional observations from a re-analysis of the deposited data

How the results depend on the processing

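Of 126 single member results, 95 kept their call under all of the 19 settings tried except the test against a 2-fold change. Where these results passed, their direction was kept too. Many of the other calls are given beside their values above. Scaling by library totals moved the median of all genes after PdB from -0.11 to -0.31 and from PdB to recovery from 0.062 to 0.33. Under it the members' median was -0.0061 after PdB and 0.24 from PdB to recovery, and the sign turned after PdB for PPIH (-0.19), PRPF4 (-0.0075), SNRPF (-0.029), PRPF8 (-0.15) and PRPF31 (-0.0047), and from PdB to recovery for SYF2 (0.25), PPIH (0.23), BUD31 (0.040) and SNRPF (0.17). Under it all genes from PdB to recovery split into 8862 up and 4876 down, against 7204 and 6563. With each library left out in turn the members' median from PdB to recovery ran from -0.046 to 0.0028, the latter without recovery replicate 3, against -0.025. Tested against a 2-fold change, 4 members rose and 4 fell after PdB (2679 and 3310 of all genes), 4 rose and 0 fell at recovery against DMSO (1548 and 1355), and 6 rose and 2 fell from PdB to recovery (2782 and 1669). With each library left out in turn, 21 to 23 members rose and 15 fell after PdB, 20 to 22 and 12 to 13 at recovery against DMSO, and 18 to 19 and 19 from PdB to recovery. With the replicate number as a block the counts were 23 and 15, 22 and 13, and 19 and 19, and over all genes 6638 and 7990 after PdB. It added USP39 and CRNKL1 at recovery against DMSO and DHX38 from PdB to recovery. A further 52 sign changes concerned 8 members that passed in neither setting, and these were not counted as changes. The lowest count of a member in a library was 335, and the precision is limited by 3 libraries per group. The cause of these shifts was not tested.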
